A study of Mus musculus with 4 samples.

Results

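The genes described are 10 interferon-γ (IFN-γ)-induced GTPase genes, chosen by gene symbol from the 56748 genes of a bulk RNA sequencing count table. They are 7 guanylate-binding protein (GBP) genes, Gbp2, Gbp3, Gbp4, Gbp5, Gbp6, Gbp7 and Gbp9, and 3 immunity-related GTPase (IRG) genes of the M class, Irgm1, Irgm2 and Igtp (also called Irgm3). All 10 were found, and all 10 passed the expression filter that left 15320 genes for testing. The samples came from female BALB/cJ mice, 7 weeks of age at injection, which received 4T1-FLuc cells through the tail vein. 4T1 is a mouse triple-negative breast cancer line derived from the same strain, so the host kept its immune system, and FLuc is the firefly luciferase used for imaging. The saline group (2 samples, labeled as PBS control) was compared with the ADC/cmLumiOpto group (2 samples). The latter received an anti-CD276 antibody conjugated to the microtubule inhibitor mertansine (DM1), at 16 mg/kg per the labels, together with cmLumiOpto. This is a vector in antibody-coated exosomes whose light-gated channel depolarizes mitochondria of cancer cells. In the study's methods cmLumiOpto includes ViviRen at 2 mg/kg, a luciferase substrate that supplies the light. The sample titles write the combined treatment as cmLumi-ADC16mg. Elsewhere the labels write cmLumi-Olap and do not explain the second term, and the methods of the study give a lower dose of ADC. The tissue was collected after 3 weeks of treatment. The study's methods call the samples of a group biological samples from treated or control mice, while the labels do not say whether the 2 samples of a group came from separate mice. The p-values measure only the spread between these samples. The labels describe tumor cells taken from the lung, whereas the methods describe dissociated lung tissue, and 8 of 8 alveolar and airway markers were detected in all 4 samples.

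GBPs and IRGs are large GTPases that cells make in response to IFN-γ. The cytokine binds its receptor, the kinases JAK1 and JAK2 pass the signal on to the nucleus, and the transcription factor IRF1 is among those that switch on the GTPase genes. GBPs coat intracellular bacteria and the vacuoles of parasites and can promote inflammasome activation, and the IRGM proteins keep other IRG proteins from acting on the membranes of the cell itself. Macrophages, endothelial cells, epithelial cells and many tumor cells can all express these genes.

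The promoter sequences are shown first, because the genes are grouped as targets of the same pathway. RefSeq windows (build GRCm38.p6) were at hand for 7 of the 10 genes, and Gbp4, Gbp6 and Gbp9 had none. The 250 bases before each start site were searched on both strands for the core of the interferon-stimulated response element (ISRE), which is GAAA, 2 bases of any kind and GAAA again, the kind of site that IRF factors bind, and for the IFN-γ-activated site (GAS), TTCNNNGAA, an element of promoters that answer to IFN-γ. The ISRE core was found in 7 of 7 genes, against 2.98% of 32851 promoter windows of the same length in the whole genome table. The GAS was found in 4 of 7 genes, Gbp5, Gbp7, Igtp and Irgm2, against 7.02% of all windows. The same 4 genes held both motifs, against 0.332% of all windows. The ISRE cores of Gbp2, Gbp3, Gbp7, Irgm1, Igtp and Irgm2 began between 24 and 64 bases before the start. Gbp5 was the exception, with its core at 165 bases and a GAS at 52 bases. All distances are to the RefSeq start. The first 30 bases after it lay in a GENCODE M21 transcript of the gene, on the same strand, for 5 of the 7 genes. Gbp3 and Irgm1 each held a pair of overlapping ISRE cores, and no GAS overlapped an ISRE core. A second annotated start of Gbp3, farther into the gene, had neither motif.

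The windows of 5 genes are printed 5′ to 3′ on the strand of the gene, with motif matches in capitals. Gbp2 is shown as the most highly expressed member, Gbp5 for its different arrangement, Irgm1 for its overlapping cores, and Igtp with Irgm2 because their windows were the most alike of the 21 pairs, at 68.9% identical columns in a global alignment. The positions are chr3:142620413-142620662 (+ strand) for Gbp2, chr3:142496684-142496933 (+ strand) for Gbp5, chr11:48871421-48871670 (− strand) for Irgm1, chr11:58199306-58199555 (+ strand) for Igtp and chr11:58214727-58214976 (+ strand) for Irgm2.
Gbp2: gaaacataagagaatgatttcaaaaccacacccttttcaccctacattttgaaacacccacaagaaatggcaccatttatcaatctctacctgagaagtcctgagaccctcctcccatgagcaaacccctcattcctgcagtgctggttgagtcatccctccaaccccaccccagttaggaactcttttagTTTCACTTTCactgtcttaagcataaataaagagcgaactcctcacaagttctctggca
Gbp5: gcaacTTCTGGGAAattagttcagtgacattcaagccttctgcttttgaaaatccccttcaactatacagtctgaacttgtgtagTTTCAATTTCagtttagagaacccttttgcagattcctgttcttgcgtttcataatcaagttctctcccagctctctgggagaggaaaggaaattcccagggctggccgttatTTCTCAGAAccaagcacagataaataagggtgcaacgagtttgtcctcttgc
Irgm1: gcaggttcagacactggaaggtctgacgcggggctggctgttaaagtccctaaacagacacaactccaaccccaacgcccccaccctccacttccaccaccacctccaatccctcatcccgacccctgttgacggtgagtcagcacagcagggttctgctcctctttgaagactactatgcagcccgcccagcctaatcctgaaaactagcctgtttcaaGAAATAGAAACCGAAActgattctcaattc
Igtp: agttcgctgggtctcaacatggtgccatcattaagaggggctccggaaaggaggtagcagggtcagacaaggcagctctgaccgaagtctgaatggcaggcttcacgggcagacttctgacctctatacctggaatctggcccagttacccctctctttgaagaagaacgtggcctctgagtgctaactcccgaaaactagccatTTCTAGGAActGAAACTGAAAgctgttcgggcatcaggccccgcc
Irgm2: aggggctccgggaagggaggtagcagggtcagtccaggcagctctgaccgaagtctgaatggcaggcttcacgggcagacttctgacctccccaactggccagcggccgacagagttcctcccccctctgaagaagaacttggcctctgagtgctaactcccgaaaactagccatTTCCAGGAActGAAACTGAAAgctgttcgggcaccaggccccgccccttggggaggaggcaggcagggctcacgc
In Igtp and Irgm2 the GAS stood 2 bases before the ISRE core, with its first base 45 and 75 bases before the start. A match to these letters is a description of the sequence and does not show that a factor was bound.

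**Figure D1:**
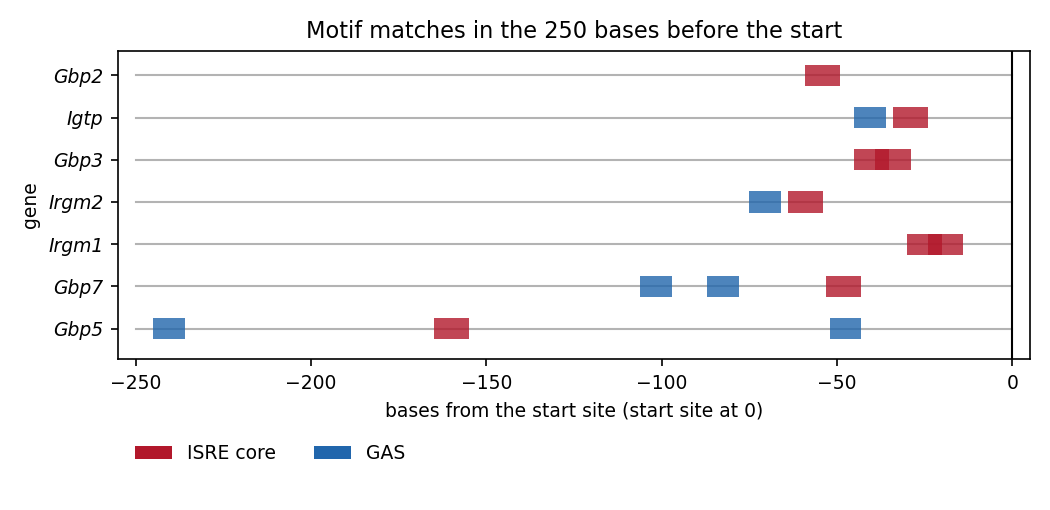
Motif matches in the 250 bases before the start site of 7 GTPase genes. The x axis is the distance from the start site in bases, each row is a gene, red blocks are ISRE cores and blue blocks are GAS matches. An ISRE core is present in 7 of 7 rows, and a GAS in the rows of Igtp, Irgm2, Gbp7 and Gbp5.

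In the count table, whose positions follow mm39 according to the submitters' processing notes, the members lie in groups of neighbors. Gbp2, Gbp3, Gbp5 and Gbp7 lie within chr3:142199739-142343769, and Gbp4, Gbp6 and Gbp9 within chr5:105225496-105441564. Igtp and Irgm2 adjoin each other on chromosome 11, with Irgm1 elsewhere on that chromosome. The annotated span of Igtp was covered to 99.2% by that of Irgm2, and the span of Gbp4 to 99.8% by those of Gbp8 and Gbp9, all on one strand. The span of Gbp9 was covered to 100% by that of Gbp8. These are spans with introns included. Of all 100-base stretches of the transcripts (GENCODE M21), 5.2% of those of Igtp and 3.0% of those of Irgm2 also occurred in the other gene. For Gbp6 the share was 64.5%, mostly in Gm43302, a gene model on the same strand that covers 100% of the Gbp6 span. For Gbp7, 9.6% occurred in the gene model Gm43802. The shares were 1.7% for Gbp9, 1.6% for Gbp4, and at most 0.7% for Gbp2, Gbp3, Gbp5 and Irgm1. The counts of Gbp6 are therefore uncertain. Gm43302 held 4 and 1 counts with saline and 3 and 1 after treatment, so few reads were assigned to it. Reads that fit both models could have been discarded, which was not tested. The GENCODE M21 transcripts need not be the gene models used for the counts. Low shares therefore do not settle the counts of Gbp4, Gbp9, Igtp and Irgm2, whose spans overlap those of other genes on the same strand.

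Levels between genes are compared as CPM (the read count scaled to library size after TMM normalization) per kilobase of gene length. Gbp2, which encodes a GBP that coats parasite vacuoles, had the highest level, at 145 ± 24.0 CPM per kilobase with saline and 109 ± 49.6 after ADC/cmLumiOpto (each SD, n = 2). Igtp came next, at 69.7 ± 5.94 CPM per kilobase with saline and 78.4 ± 50.04 after treatment (each SD, n = 2). Without treatment these genes stood apart from each other and from the rest. Below them Gbp3 (33.9 ± 7.71), Irgm2 (29.6 ± 2.44), Irgm1 (27.6 ± 6.18), Gbp4 (22.1 ± 7.13), Gbp7 (16.4 ± 1.68) and Gbp9 (14.2 ± 5.18 CPM per kilobase, all SD, n = 2) formed a series in which each gene overlapped its neighbor in the 2 saline samples. Gbp5, a GBP linked to inflammasome activation, was lower at 5.58 ± 1.26, and Gbp6 was lowest at 0.519 ± 0.319 CPM per kilobase (SD, n = 2). The order after ADC/cmLumiOpto was the same apart from Gbp4 and Irgm1, which exchanged places 5 and 6.

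**Figure D2:**
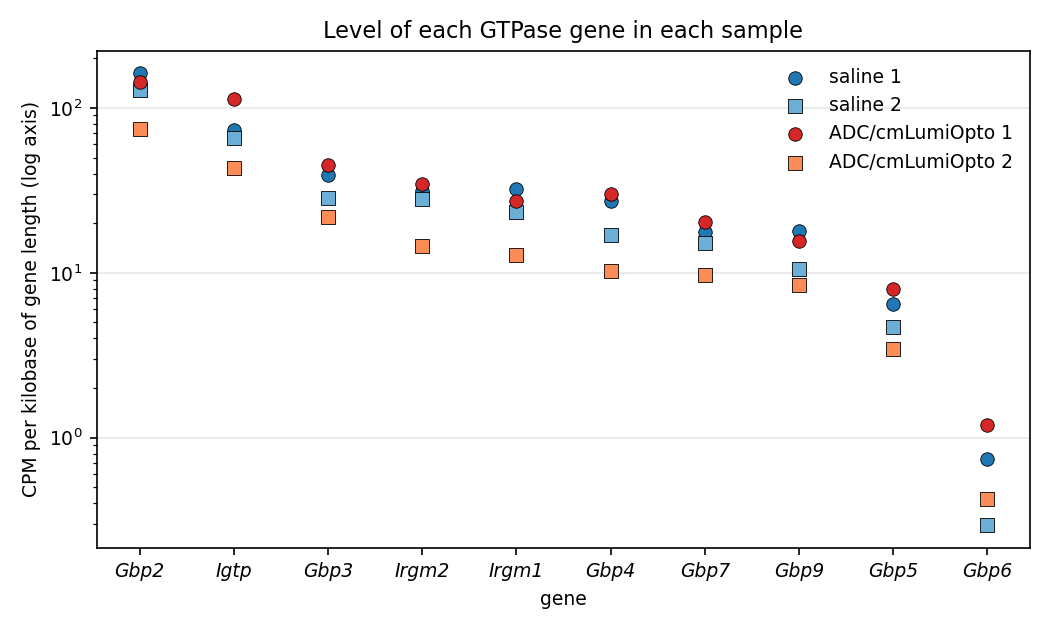
Level of each GTPase gene in the 4 samples. The y axis is CPM per kilobase of gene length on a log axis, genes are ordered by their saline mean, and each symbol is 1 sample. ADC/cmLumiOpto sample 2 is the lowest symbol for 9 of 10 genes, and the levels run from 162 for Gbp2 in saline sample 1 to 0.294 for Gbp6 in saline sample 2.

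The question of the comparison was whether the combined treatment changed these genes in the metastasis-bearing lung. In these 4 samples no member differed between the groups beyond the spread between replicates. With edgeR's quasi-likelihood test and Benjamini-Hochberg adjustment over 15320 genes, 0 of 10 members had an adjusted p under 0.05, and 0% of all genes tested did. At an unadjusted p under 0.05 there were 0 of 10 members, against 23.2% of all genes. The groups overlapped in 10 of 10 members, whereas 57% of all genes tested had both ADC/cmLumiOpto samples on 1 side of both saline samples. The median log2 fold change of the members was -0.13, with 7 lower and 3 higher after treatment, beside 0.028 for all genes tested, of which 48% were lower. With DESeq2 and with the edgeR exact test, which called 8.83% and 7.64% of all genes, the count of members was also 0. It was 0 as well without a filter on low counts (8.84% of all genes called) and with the replicate number as a block (3.96%). At an unadjusted p under 0.05 the count was 0 with DESeq2 and the exact test, 2 without the filter (Gbp2 and Irgm1, both lower, against 18.8% of all genes) and 1 with the block (Irgm1, lower, against 25.1%).

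Gbp2 was at 408 and 322 CPM in saline samples 1 and 2 and at 363 and 186 CPM in ADC/cmLumiOpto samples 1 and 2. The saline samples lay on either side of the first treated sample, and the second treated sample was the lowest. The log2 fold change was -0.41 (95% interval -1.17 to 0.35, adjusted p = 0.468 in edgeR's quasi-likelihood test). Irgm1, which regulates the other IRG proteins and takes part in autophagy, was at 186 and 135 CPM with saline and 157 and 74.0 CPM after treatment. It had the lowest fold change of the members, -0.47 on the log2 scale (95% interval -1.33 to 0.39, adjusted p = 0.459 in edgeR).

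Igtp, an endoplasmic reticulum-associated IRGM protein, was at 149 and 132 CPM with saline, samples that were close to each other, and at 230.0 and 86.9 CPM in the treated samples. The treated samples thus enclosed the saline samples from above and below. The log2 fold change was 0.17 (95% interval -0.83 to 1.16, adjusted p = 0.837 in edgeR). Its neighbor Irgm2, an IRGM protein that restrains inflammasome activation, showed the same arrangement, at 116 and 103 CPM with saline and 127 and 53.4 CPM after treatment. The log2 fold change of Irgm2 was -0.27 (95% interval -1.18 to 0.64).

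Gbp4 was at 203 and 128 CPM with saline and had the largest gap between treated samples, at 226 and 77.2 CPM. Gbp3 was at 129 and 93.0 CPM with saline and 147 and 70.8 CPM after treatment. Gbp7, which takes part in the oxidative defense of macrophages, was at 98.8 and 85.5 CPM with saline and 114 and 54.6 CPM after treatment. In these 3 genes the treated samples were the highest and the lowest of the 4. Their log2 fold changes were -0.13, -0.025 and -0.13, in the same order.

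Gbp9 was at 92.3 and 54.5 CPM with saline and 80.3 and 43.7 CPM after treatment, so that the first sample of each group was above the second sample of both. Gbp5 was at 43.0 and 31.2 CPM with saline and 53.0 and 22.8 CPM after treatment. The log2 fold changes of Gbp9 and Gbp5 were -0.24 (95% interval -1.10 to 0.61) and 0.032 (95% interval -0.91 to 0.97). Gbp6 received 71 and 26 reads with saline and 125 and 52 reads after treatment, which is 4.43, 1.75, 7.08 and 2.53 CPM. It was the only member whose lowest sample was saline sample 2. Its log2 fold change, 0.63, was the highest of the members and had the widest interval, -0.93 to 2.18. For all 10 members the lower bounds of the 95% intervals lay between -1.33 and -0.83 and the upper bounds between 0.35 and 2.18. The smallest adjusted p of a member was 0.459 and the largest 0.976 in edgeR's quasi-likelihood test. The groups are therefore not shown to be alike, and in 7 members, Gbp2, Gbp4, Gbp6, Gbp9, Irgm1, Irgm2 and Igtp, the interval reached beyond 1 on the log2 scale in at least 1 direction.

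**Figure D3:**
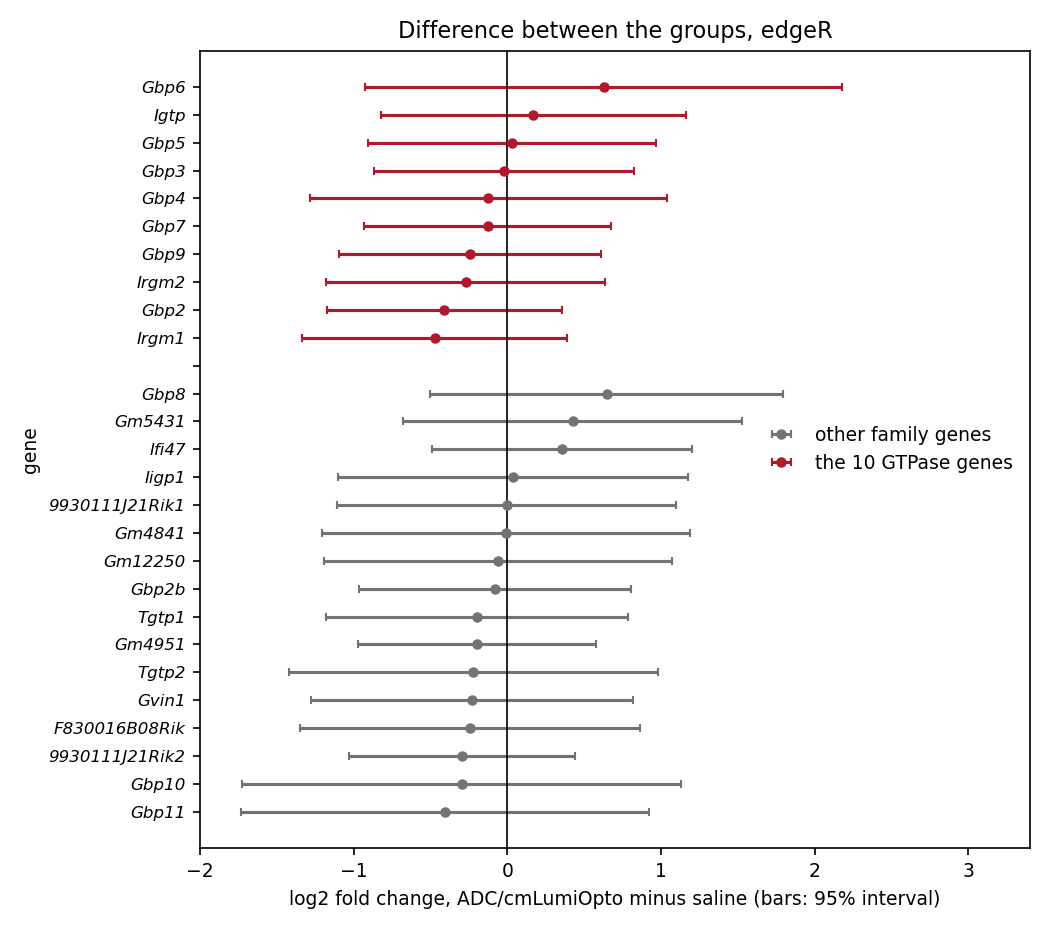
Log2 fold change of the 10 GTPase genes (red) and of 16 other genes of the GBP and IRG families (gray). The x axis is ADC/cmLumiOpto minus saline on the log2 scale, and bars are 95% intervals from edgeR with 2 samples per group. All intervals cross 0, and the widest of the members, for Gbp6, runs from -0.93 to 2.18.

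Each member differed more between the ADC/cmLumiOpto samples than between the group means. In each of the 10 genes, ADC/cmLumiOpto sample 1 was above sample 2, by 1.84-fold for Gbp9 to 2.93-fold for Gbp4. A difference at least as large as that of Gbp9, in that direction, was present in 4.16% of all genes tested. The cutoff and the direction were taken from the members, so all 10 meet them by construction. The median absolute difference between the treated samples was 1.15 on the log2 scale for the members, against 0.29 for all genes tested, and between the saline samples 0.46 against 0.25. Saline sample 1 was above sample 2 in all 10 genes too, by 1.12-fold for Irgm2 to 2.53-fold for Gbp6. The order in which the samples fell from ADC/cmLumiOpto 1 through saline 1 and saline 2 to ADC/cmLumiOpto 2 was shared by 6 members, Igtp, Irgm2, Gbp3, Gbp4, Gbp5 and Gbp7, against 2.7% of all genes tested. This order was singled out after the values were seen. ADC/cmLumiOpto sample 2 was the lowest for 9 of 10 members, against 19.9% of all genes tested. That sample, too, was singled out after the values were seen.

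Summed over the members, the level was 1429 and 1086 CPM with saline and 1506 and 672 CPM after ADC/cmLumiOpto. The 4 genes on chromosome 3 summed to 678 and 532 CPM with saline and 677 and 335 CPM after treatment. The 3 genes on chromosome 5 summed to 300.0 and 184 CPM with saline and 314 and 123 CPM after treatment, and the 3 IRGM genes on chromosome 11 to 451, 370.5, 515 and 214 CPM. In each of these sums the treated samples differed from each other by at least 2.02-fold, and the second treated sample was the lowest.

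**Figure D4:**
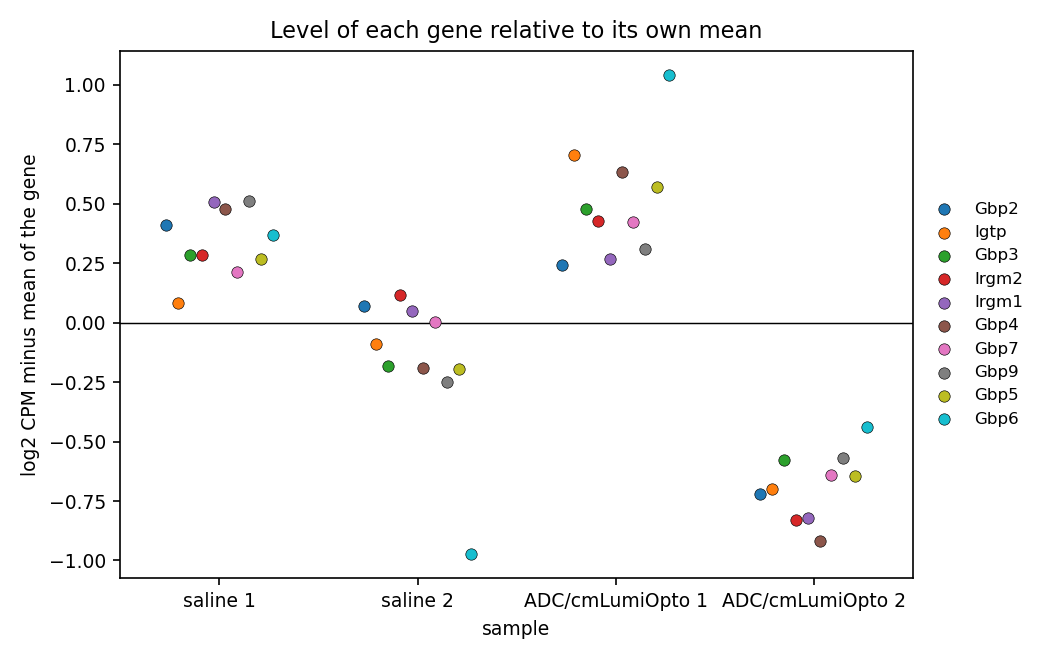
Each GTPase gene relative to its own mean over the 4 samples. The y axis is log2 CPM minus the mean of the gene, each point is 1 gene in 1 sample, and genes have 1 color each. All 10 points are above 0 in saline sample 1 and ADC/cmLumiOpto sample 1, and all 10 are below 0 in ADC/cmLumiOpto sample 2.

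The mean profile of the members, as log2 CPM relative to the mean of each gene, was 0.34 and -0.16 with saline and 0.51 and -0.68 after treatment. Gbp5 and Gbp3 lay closest to it, at Euclidean distances of 0.11 and 0.13 over the 4 samples, and Gbp6 lay farthest, at 0.96. Among genes outside the 10, the nearest profiles were those of Gm16433 (0.047), Gbp2b (0.080), Gm9432 (0.11), 1700056E22Rik (0.13) and Klhl4 (0.13). Gbp2b, which encodes GBP1, is another member of the family, at 331 and 253 CPM with saline and 382 and 170.02 CPM after treatment. The other 4 genes had at most 37 counts in any sample, so their matches rest on few reads.

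The 16 other GBP and IRG family genes of a list from the same families were all tested. Of these, 0 passed the adjusted or the unadjusted threshold in edgeR, the groups overlapped in 16 of 16, and the median log2 fold change was -0.14. Among all genes tested, 23.2% passed the unadjusted threshold, and the groups did not overlap in 57%. ADC/cmLumiOpto sample 1 was above sample 2 in 15 of 16, and sample 2 was the lowest of all 4 samples in 12 of 16. Iigp1, an effector IRG that disrupts parasite vacuoles, was at 180 and 158 CPM with saline and 262 and 83.4 CPM after treatment. The effector IRG genes Tgtp1, Tgtp2 and Gm12250 had log2 fold changes of -0.20, -0.22 and -0.063, and Ifi47 had 0.35. Tgtp1 and Tgtp2 are near-identical copies, and their counts cannot be taken as separate. Among the GBP genes, Gbp8, Gbp10 and Gbp11 had log2 fold changes of 0.64, -0.30 and -0.41, with at most 345 counts in a sample. The IRG-related genes Gm4841, Gm4951, Gm5431, F830016B08Rik, 9930111J21Rik1 and 9930111J21Rik2 and the giant GTPase gene Gvin1 lay between -0.30 and 0.42.

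Upstream of the GTPases, Ifng itself was at 0.312 and 0.606 CPM with saline and 1.08 and 0.487 CPM after treatment, where 3 counts correspond to 0.146 to 0.202 CPM. The groups overlapped, and the interval of its log2 fold change, -1.01 to 2.51, was wide. The receptor genes Ifngr1 and Ifngr2 had log2 fold changes of 0.51 and 0.47, and both treated samples were above both saline samples, as in 28.1% of all genes. The kinase genes Jak2 and Jak1 had log2 fold changes of -0.40 and -0.32, and both treated samples were below both saline samples, as in 28.8% of all genes. In edgeR's quasi-likelihood test the adjusted p values of Ifngr1, Ifngr2, Jak2 and Jak1 were 0.206, 0.279, 0.20 and 0.261, so 0 of these 5 genes passed the threshold. At an unadjusted p under 0.05 there were 2 of 5, Ifngr1 and Jak2, against 23.2% of all genes.

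Among the transcription factors of the pathway, Irf1 was at 154 and 137 CPM with saline and 169 and 124 CPM after treatment. As for 6 of the members, its highest and lowest values were those of the treated samples. Its log2 fold change was 0.011 (95% interval -0.47 to 0.50, adjusted p = 0.981 in edgeR). Irf8, a factor of myeloid cells, had a log2 fold change of -0.14, Irf2, a repressor of the same sites, of 0.082, and Batf2 of 0.080. Ciita and Nlrc5, which drive MHC class II and class I genes, had 0.060 and -0.24. Of the 6 transcription factor genes, 0 passed either threshold in edgeR, and the groups overlapped in 5. Of all genes tested, 23.2% passed the unadjusted threshold and 57% had groups that did not overlap.

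Among the 6 inhibitors of the pathway, Ptpn6, the phosphatase SHP-1 of blood cells, had the largest difference, with 80.5 and 65.03 CPM with saline and 99.1 and 139 CPM after treatment. Its log2 fold change was 0.71 (adjusted p = 0.147 in edgeR's quasi-likelihood test, and past 0.05 in DESeq2). Both treated samples were above both saline samples, as in 28.1% of all genes. The feedback inhibitors Socs1 and Socs3 had log2 fold changes of 0.14 and -0.17, the phosphatase genes Ptpn1 and Ptpn2 of -0.040 and 0.077, and Pias1 of -0.28. Of the 6 genes, 0 passed the adjusted threshold in edgeR. The unadjusted threshold was passed by 1, Ptpn6, against 23.2% of all genes.

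Other targets of IFN-γ, among them proteasome, peptide transport, MHC and chemokine genes, were mostly at higher values after treatment. Of 20 such genes 16 were higher and 4 lower, with a median log2 fold change of 0.39, against 52% of all genes tested that were higher, and 0 passed the adjusted threshold in edgeR while 1 had an unadjusted p under 0.05, in a background of 11% of all genes for the upward direction. The groups overlapped in 19 of 20, whereas they did not in 57% of all genes. Psme2, a proteasome activator subunit, was at 127 and 119.8 CPM with saline and 254 and 145 CPM after treatment. H2-Aa, a chain of MHC class II, was at 211 and 127 CPM with saline and 483 and 185 CPM after treatment. Ido1, which degrades tryptophan, was at 3.31 and 2.49 CPM with saline and at 20.8 and 1.95 CPM after treatment, so that its log2 fold change of 1.96 rested on 1 treated sample and was -0.56 without that sample.

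Of 23 type I interferon-stimulated genes, 22 were higher and 1 lower after treatment, with a median log2 fold change of 0.56, against 52% of all genes tested that were higher, and 0 passed the adjusted threshold in edgeR. At an unadjusted p under 0.05 there were 3 of 23, near the background of 11% of all genes for that direction. Both treated samples were above both saline samples in 6 of 23, near the background of 28.1%. These 3 were the 2′-5′ oligoadenylate synthetase genes Oas2, Oas3 and Oas1a, which sense double-stranded RNA. Oas2 was at 3.75 and 2.96 CPM with saline and 12.1 and 12.3 CPM after treatment, and its log2 fold change came to 1.86 (adjusted p = 0.116 in edgeR's quasi-likelihood test, and past 0.05 in DESeq2). Oas3 and Oas1a had log2 fold changes of 1.02 and 1.01. The median absolute log2 difference between the treated samples was 0.92 here, 0.80 for the other IFN-γ targets and 1.15 for the members. The type I genes summed to 854 and 526 CPM with saline and 1355 and 700 CPM after treatment. The other IFN-γ targets summed to 7889 and 5210 CPM with saline and 10998 and 5701 CPM after treatment. In both lists ADC/cmLumiOpto sample 1 was the highest, and sample 2 lay between the saline samples. The difference between these lists and the GTPase genes was not tested, and many interferon-stimulated genes answer to both types of interferon.

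Genes of autophagy and of the inflammasome, with which GBP and IRGM proteins work, were examined as a list of 17, of which 16 were found. Here 15 were higher and 1 lower, with a median log2 fold change of 0.37, in a background of 52% of all genes tested with higher values. Both treated samples were above both saline samples in 12, against 28.1% of all genes. In edgeR 0 of 16 passed the adjusted threshold and 4 had an unadjusted p under 0.05, all of them higher, against 11% of all genes in that direction. Atg3, which attaches lipid to autophagy proteins, was at 33.7 and 35.7 CPM with saline and 54.7 and 57.9 CPM after treatment, and its log2 fold change came to 0.70 (adjusted p = 0.117 in edgeR's quasi-likelihood test, and past 0.05 in DESeq2). Gabarapl2, one of those lipid-bound proteins, and Casp4, the caspase-11 gene whose protein senses lipopolysaccharide on GBP-coated bacteria, each had a log2 fold change of 0.65. In these 3 genes both treated samples were above both saline samples.

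**Figure D5:**
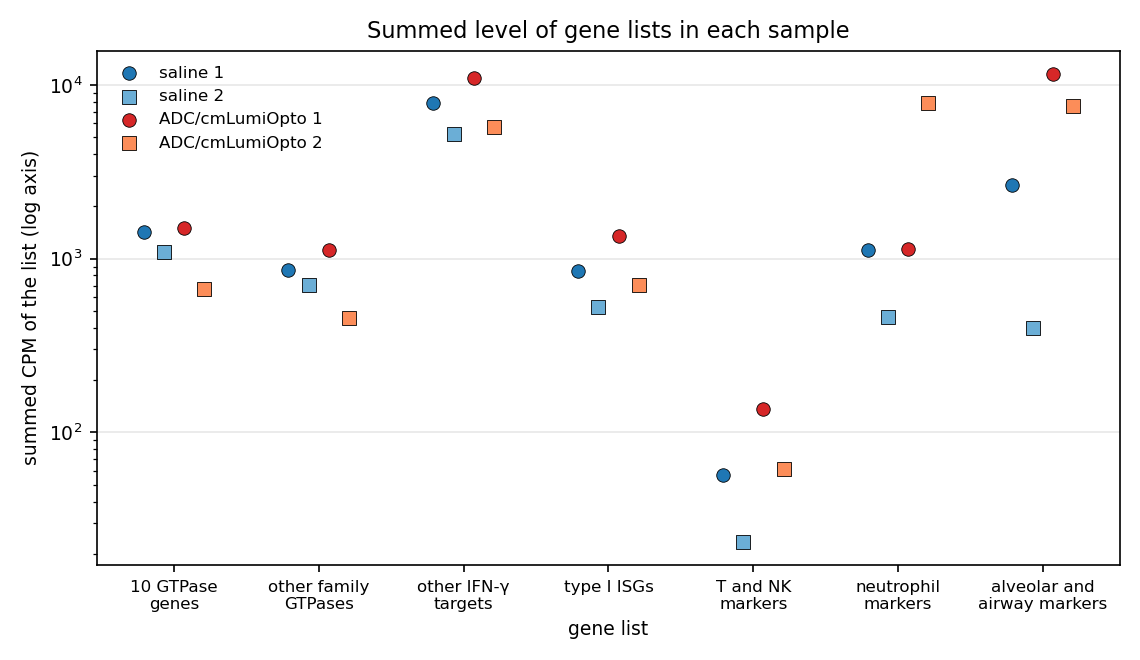
Summed CPM of 7 gene lists in each sample. The y axis is a log axis in CPM, and each symbol is 1 sample. ADC/cmLumiOpto sample 2 is lowest for the 10 GTPase genes (672 CPM) and for the other family genes (456 CPM), and highest for the neutrophil markers (7843 CPM).

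The summed RNA of cell type markers differed between samples of the same group. In bulk tissue, fewer cells that express a gene and less RNA per cell cannot be told apart. The 6 neutrophil markers summed to 1124 and 463 CPM with saline and to 1139 and 7843 CPM after treatment, so the treated sample with the lowest GTPase levels had the highest neutrophil level. The 12 T and NK cell markers summed to 57.2 and 23.6 CPM with saline and 136 and 61.4 CPM after treatment, and 8 alveolar and airway markers to 2642, 401, 11517 and 7592 CPM. By fold change, 6 of 6, 11 of 11 tested and 8 of 8 of these markers were higher after treatment, against 52% of all genes tested. Both treated samples were above both saline samples in 8 of 8 alveolar and airway markers, against 28.1% of all genes. They were above in 6 of 11 tested T and NK cell markers. Both were below both saline samples in 5 of 6 fibroblast markers, against 28.8% of all genes. Of 7 tumor epithelial genes 4 were below and 1 above. The groups overlapped in 3 of the 6 neutrophil markers, whereas they did not in 57% of all genes. In ADC/cmLumiOpto sample 1 S100a8, Retnlg and Cxcr2, at 422, 68.2 and 30.2 CPM, lay below saline sample 1, at 453, 81.7 and 33.1 CPM. The 5 pan-leukocyte markers summed to 685, 428, 871 and 1128 CPM. The 8 macrophage and monocyte markers summed to 777, 685, 750.1 and 645 CPM. By fold change 5 of these 8 were higher and 3 lower, against 52% of all genes tested that were higher. The 6 dendritic cell markers summed to 58.8, 25.5, 101 and 69.1 CPM, and the 3 B cell markers to 3.87, 1.28, 6.23 and 6.23 CPM. Klrb1c, Ms4a1 and Cd209a had 0 counts in saline sample 2. The 6 endothelial markers summed to 474, 367, 475 and 714 CPM, the 6 fibroblast markers, 6 of 6 lower, to 5065, 3462, 1720.3 and 1396 CPM, and 7 genes of tumor epithelium, some of which lung epithelium also expresses, to 2744, 3118, 2634 and 2544 CPM. The part of these differences in the GTPase levels was not tested. Without ADC/cmLumiOpto sample 2 the median log2 fold change of the 10 GTPase genes was 0.36, without sample 1 of that group it was -0.74, without saline sample 1 it was 0.21 and without saline sample 2 it was -0.28. In each of these fits 0 of 10 members passed an adjusted p of 0.05 in edgeR, against 1.34% of all genes without saline sample 1, 0.00653% without saline sample 2 or without ADC/cmLumiOpto sample 1, and 0% without ADC/cmLumiOpto sample 2. At an unadjusted p under 0.05 the count of members in edgeR was 8 without ADC/cmLumiOpto sample 1, all of them lower and all but Gbp6 and Gbp9, against 16.6% of all genes. It was 1 without ADC/cmLumiOpto sample 2 (Igtp, higher, against 23.4%) and 0 without either saline sample. In those fits the group left with 1 sample was assumed to vary like the other group.

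Total counts per sample ran from 15263375 to 19675436, so that 3 counts, a floor for counting error only, corresponded to at most 0.202 CPM. The smallest two-sided p that permuting 2 and 2 samples exactly allows is 0.333, so tests came from models fitted across all genes.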

How the data were processed

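Bulk RNA sequencing counts of 4 samples were analyzed. The authors aligned reads with HISAT2 and deposited raw counts of reads per gene, with gene lengths. The submitters' notes name mm39, the methods name GRCm38, and the counting program and its handling of strand are not given in the sources used here. Library sizes were the total counts, scaled by TMM. Genes were kept by filterByExpr (minimum count 10, minimum total 15) and compared with edgeR 4.0.16 (quasi-likelihood test, R 4.3.3), with Benjamini-Hochberg adjustment over 15320 genes and a threshold of 0.05. CPM are counts divided by these scaled library sizes. Alternatives were DESeq2 1.42.0, the edgeR exact test, other scalings and filters, protein-coding genes only, a gene length correction, the replicate number as a block, and each sample left out in turn. The fit was run on simulated data with the same small spread between replicates for every gene. That run does not show how the fit performs at the larger spread of the members. Promoter sequences are from RefSeq (GRCm38.p6), matched by symbol for 7 of 10 genes. The genes named outside the 10 were all genes of the family and pathway lists, the 3 smallest p of each other list and the 5 nearest profiles. The members and lists were chosen with earlier results of these data known. The study's methods state more samples per group than the 2 analyzed here. A few genes of the lists first drawn up are not reported here and were left out of the list counts and sums.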

Additional observations from a re-analysis of the deposited data

How the results depend on the processing

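For the 10 GTPase genes, the count past an adjusted p of 0.05 in edgeR or DESeq2 was 0 under every alternative run. The count over all genes, 0 in the quasi-likelihood test, was 1170 with the edgeR exact test, 1353 with DESeq2 and 2259 without a filter. With the replicate block, that is, with the replicate number as a covariate, it was 607 and 0 of these were members. The labels number the samples and do not say whether equal numbers were matched. The deviations of the first samples of each group correlated at r = 0.0985 over 15320 genes. In all 10 members sample 1 was above sample 2 in both groups. Neither value can decide whether the samples were matched. Without saline sample 1 it was 206, without saline sample 2 or ADC/cmLumiOpto sample 1 it was 1 and without ADC/cmLumiOpto sample 2 it was 0, and with 1 sample left out the median log2 fold change of the members lay between -0.74 and 0.36. In those fits the lone sample of a group was assumed to vary like the other group. Gbp2 and Irgm1 stayed lower after treatment in every alternative run, whereas the sign of the other 8 members changed in at least 1. The cause was not tested. With DESeq2 the log2 fold change became 0.0037 for 9930111J21Rik1 and 0.0076 for Gm9432. With at least 10 counts in every sample the log2 fold change became 0.015 for Gbp3, 0.031 for 9930111J21Rik1, 0.030 for Gm4841 and 0.019 for Gm9432. With the gene length trend removed the log2 fold change became 0.019 for Gbp4, -0.16 for Igtp, -0.075 for Irf1, -0.18 for Batf2, -0.038 for Socs1, -0.10 for Ptpn2 and -0.087 for Klhl4. With library size alone the log2 fold change became 0.0053 for Gbp3, 0.036 for 9930111J21Rik1, 0.023 for Gm4841, 0.013 for Ptpn1 and 0.020 for Gm9432. With protein-coding genes only the log2 fold change became 0.0069 for Gbp3, 0.023 for 9930111J21Rik1 and 0.018 for Gm4841. With upper-quartile normalization the log2 fold change became 0.066 for Gbp3, 0.012 for Gbp2b, 0.031 for Gm12250, 0.077 for 9930111J21Rik1, 0.083 for Gm4841, 0.041 for Ptpn1, 0.024 for Gm16433 and 0.077 for Gm9432. With the replicate block the log2 fold change became -0.067 for Gbp5, -0.18 for Iigp1, 0.032 for 9930111J21Rik1, -0.0035 for Irf1, -0.0035 for Ciita, -0.017 for Batf2 and -0.043 for Klhl4. Ranges over the fits with 1 sample left out, where the sign changed, were Gbp3 -0.64 to 0.41, Gbp4 -1.09 to 0.45, Gbp9 -0.74 to 0.19, Gbp2b -0.77 to 0.39, Gbp10 -1.36 to 0.32, Gbp11 -1.09 to 0.11, Gm12250 -1.05 to 0.53, 9930111J21Rik1 -0.30 to 0.40, Irf8 -0.34 to 0.055, Gm16433 -0.81 to 0.44, Gm9432 -0.77 to 0.50, 1700056E22Rik -0.97 to 0.39, Gbp5 -0.69 to 0.52, Iigp1 -1.01 to 0.64, Gm4841 -0.84 to 0.57, Irf1 -0.22 to 0.22, Irf2 -0.11 to 0.32, Ciita -0.56 to 0.50, Socs1 -0.31 to 0.85, Klhl4 -0.82 to 0.58, Gbp6 -0.28 to 1.45, Igtp -0.69 to 0.71, Gbp8 -0.19 to 1.18, Ifi47 -0.28 to 0.80, Gm5431 -0.068 to 0.80, Batf2 -0.59 to 0.54, Socs3 -0.57 to 0.16, Ptpn1 -0.37 to 0.24, Ptpn2 -0.062 to 0.21, Ido1 -0.56 to 2.84, Gbp7 -0.75 to 0.31, Irgm2 -1.02 to 0.22, Tgtp1 -1.04 to 0.34, Tgtp2 -1.34 to 0.40, F830016B08Rik -0.79 to 0.16 and Gm4951 -0.73 to 0.20. Among the genes named outside the members, Oas2 and Atg3 passed an adjusted p of 0.05 with DESeq2, with the edgeR exact test and without a filter, Ptpn6 with DESeq2 and without a filter, Psme2, H2-Aa, Ido1, Oas3 and Gabarapl2 without a filter, Oas1a without a filter and with the replicate block, and Oas2 with that block too. Among the members Gbp6 had the fewest reads, at 26 to 125 counts per sample.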
